A study of Homo sapiens with 4 samples.

Results

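RNA levels of A549 cells kept on plastic in hypoxia were compared with those of the same line on plastic in normoxia, gene by gene. The comparison covered 12565 of 26255 listed gene symbols, those with a mean of at least 1 FPKM over the 4 libraries of the study. FPKM is a count of sequenced fragments divided by transcript length in kilobases and by library depth. Genes with symbols of small RNAs (starting MIR and a digit, MIRLET, SNOR, SCARNA, RNU or RN7) were left out because mRNA libraries recover small RNAs poorly. Of these, 98 passed the same minimum. The choice went by symbol, so it also took out any long noncoding RNA gene named in this way. Short RNAs with other names, such as BCYRN1, stayed in.

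A549 is an established human lung adenocarcinoma line, here of the WT genotype. For 2D culture the cells were grown on an ordinary dish for 5 days with 5% serum, in normoxia or in hypoxia with 1% oxygen. For 3D culture they were seeded on set Matrigel, a gelled basement membrane extract, under the same serum, time and oxygen conditions. Each of the 4 groups had 1 library, so no difference has a replicate check, no test between conditions is possible and every value below describes the libraries named. The sources used here do not say whether the cultures were grown or sequenced together.

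Cells sense oxygen through prolyl hydroxylases that use it to mark the alpha subunits of hypoxia-inducible factor (HIF) for destruction. When oxygen is scarce the alpha subunits persist, pair with ARNT and bind a short core motif in the regulatory DNA of their target genes. Known targets raise glucose uptake and glycolysis, restrain pyruvate entry into mitochondria, export acid and signal to blood vessels. In epithelial tumours, low oxygen is also known to act on genes of the extracellular matrix.

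Depth was inferred from the smallest steps in the values and came to about 23800000 fragments for 2D normoxia and 38500000 for 2D hypoxia. At 1 FPKM, a transcript of 2 kb thus rested on about 47.6 and 77.0 fragments. The epithelial label fitted the marker genes: all 6 epithelial markers were at 1 FPKM or more, with a summed level of 7593 FPKM in normoxia and 5205 in hypoxia. Of 8 markers of alveolar type II cells, the cell type the line is often used to model, only 2 reached 1 FPKM in either library, led by the lipid transporter ABCA3 (30.1 and 38.7 FPKM). None of 7 endothelial markers reached 1 FPKM, and of 8 blood cell markers 2 did, led by CD68. Of 8 fibroblast markers only COL1A1 did, at 2.32 in normoxia and 13.2 FPKM in hypoxia, and the summed level of the list went from 2.80 to 14.4 FPKM with it. In bulk RNA, fewer cells of a type and less RNA per cell cannot be told apart.

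Each gene was described by its log2 ratio, log2 of (hypoxia FPKM + 1) over (normoxia FPKM + 1), which understates the difference of genes with low levels. By this ratio 226 genes (1.8% of those compared) stood 2-fold or more above their normoxic level in 2D and 177 (1.41%) below it, and 37 and 24 passed 4-fold. The median ratio over all genes was -0.0027, and 89.1% of genes lay within 1.5-fold. All 388 genes past 2-fold that had a known transcript length lay outside the 95% range of the counting error around 0, but this error covers the sampling of fragments and not the spread between cultures. As the genes were picked by the same ratio, at a threshold wide against this error, the outcome was set by the choice and supports no call. The higher genes made up 2.76% of the FPKM of the normoxia library and 6.42% in hypoxia, and the lower genes 2.14% and 0.739%. Rescaling each library to an FPKM sum of 1000000 lowered the median ratio to -0.13, so that the sign of ratios between 0 and about 0.13 depends on the scaling. It gave 207 higher and 316 lower genes, 39.6% higher in place of 56.1%, but as it about doubles the values it also gives the pseudocount less weight. Rescaling to the mean sum of the 4 libraries, chosen after seeing the data, left the pseudocount's weight nearly as it was and gave 182 higher and 243 lower genes, 42.8% higher. On rescaling, below, means to the sum of 1000000. The shares of 1.8% and 1.41% are those beside which the counts of list members below stand. Counts of members above or below 0 stand beside 6238 of all 12565 genes above 0 (49.6%) and 6325 below. After rescaling, 4356 of all genes were above 0, so most genes then stood below it. The threshold cut through a continuous range: just inside it lay CSRP2 and PTRF at 1.001 and VGF at -1.0001, and just outside it the phosphofructokinase PFKP at 0.997 and the sodium channel subunit SCNN1A at -0.998.

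**Figure D1:**
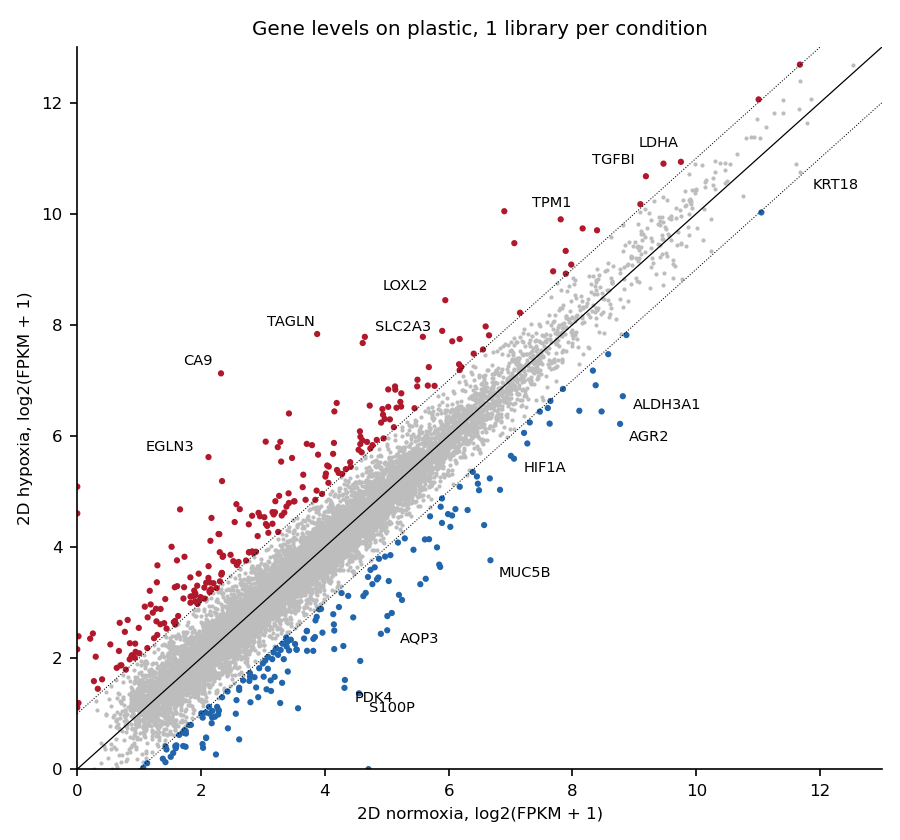
Level of each of the 12565 genes in 2D normoxia (x axis) and 2D hypoxia (y axis), both as log2(FPKM + 1), 1 library each. Red points are the 226 genes at least 2-fold higher, blue points the 177 at least 2-fold lower, the solid line marks equal levels and the dotted lines 2-fold. CA9, EGLN3 and TAGLN sit farthest above the line among the labelled genes and S100P, MUC5B and PDK4 farthest below.

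The oxygen sensors differed among themselves. EGLN3, a HIF prolyl hydroxylase that is itself a HIF target, was at 3.35 in normoxia and 48.1 FPKM in hypoxia (log2 ratio 3.498, counting error 0.16). EGLN1, the main hydroxylase in most cells, was at 15.7 and 22.2 FPKM (log2 ratio 0.47), and EGLN2 at 41.6 and 39.8 FPKM (log2 ratio -0.062). EGLN3 thus went from 7.44% to 54.7% of the sum of EGLN3 and EGLN2. The mRNA of HIF1A was lower in hypoxia, at 127 in normoxia and 48.9 FPKM in hypoxia (log2 ratio -1.36), while EPAS1, which encodes HIF-2 alpha, was at 65.5 and 49.8 FPKM (log2 ratio -0.39) and the partner ARNT at 11.7 and 12.1 FPKM (log2 ratio 0.051). HIF1A held 66.1% of the sum of both alpha subunits in normoxia and 49.5% in hypoxia, so the mRNAs of the pair stood about level. HIF1A-AS2, annotated on the opposite strand of HIF1A, was at 32.3 and 13.4 FPKM (log2 ratio -1.21). The library kit was stranded, but the sources used here do not say how strand was used in counting. Reads of the pair may therefore be mixed in these values. CITED2, a rival of HIF for shared coactivators, was at 6.005 and 11.3 FPKM (log2 ratio 0.81). Over the 10 genes of oxygen sensing that were measured, 1 was at least 2-fold higher and 1 lower. Among 16 oxygen-dependent demethylases of histones and DNA, 1 passed 2-fold: KDM3A, which removes methyl groups from lysine 9 of histone H3, at 11.6 and 38.4 FPKM (log2 ratio 1.65). KDM4B was next at 4.10 and 8.04 FPKM (log2 ratio 0.82), and 12 of the 16 stood above 0 (10 after rescaling).

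CA9, a carbonic anhydrase on the cell surface that turns carbon dioxide into bicarbonate and acid, had the largest ratio of the genes above 0 in both libraries. It was at 3.999 in normoxia and 139 FPKM in hypoxia (log2 ratio 4.80, counting error 0.12). Its part of the sum of CA9 and CA12 went from 0.906% to 22.1%, and CA12 itself was at 437 and 488 FPKM. SLC16A3, which exports lactate, was at 12.8 in normoxia and 56.0 FPKM in hypoxia (log2 ratio 2.04), while SLC16A1, a related carrier, was at 23.7 and 26.5 FPKM (log2 ratio 0.16). SLC16A3 was therefore the lesser of the pair in normoxia and the greater in hypoxia, going from 35.2% to 67.9% of their sum. The 12 measured genes of acid-base and lactate transport, these included, had a median of 0.015, which turned to -0.10 on rescaling.

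The promoter of CA9 is shown because this gene stands highest and because the HIF core motif lies close to its start. The sequence covers the 250 bases before the start site, chr9:35673678-35673927 on the plus strand of GRCh38.p14, taken from RefSeq. Capitals mark the core ACGTG, which reads CACGT on the other strand. The match begins 18 bases before the start site.

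CA9: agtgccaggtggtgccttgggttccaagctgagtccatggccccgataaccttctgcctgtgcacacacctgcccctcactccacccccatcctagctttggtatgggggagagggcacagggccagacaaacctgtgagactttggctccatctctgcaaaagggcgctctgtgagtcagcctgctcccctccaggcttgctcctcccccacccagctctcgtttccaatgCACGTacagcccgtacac

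Further windows are shown for 5 genes of glucose use and mitochondrial turnover that were at least 2-fold higher, each around the first match of its promoter, 5′ to 3′ on the gene's strand, with matches in capitals. They come from chr17:28577103-28577145 (minus strand), chrX:78104018-78104078 (plus), chr11:18394350-18394410 (plus), chr12:6914434-6914494 (plus) and chr10:131982025-131982085 (minus), in the order printed and in the same build.

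ALDOC: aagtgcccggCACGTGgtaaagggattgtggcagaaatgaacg
PGK1: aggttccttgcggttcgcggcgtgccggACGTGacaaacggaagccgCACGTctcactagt
LDHA: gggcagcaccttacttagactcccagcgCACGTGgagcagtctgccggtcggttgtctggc
ENO2: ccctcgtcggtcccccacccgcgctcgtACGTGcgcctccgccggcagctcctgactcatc
BNIP3: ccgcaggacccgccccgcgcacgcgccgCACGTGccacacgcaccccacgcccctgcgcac

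In ALDOC, LDHA and BNIP3 the core lies inside CACGTG, the palindrome known as the E-box, which other factors also bind. Over the whole window of 250 bases before to 50 after the start, LDHA held 5 matches on either strand, ALDOC and PGK1 3 each, BNIP3 2 and ENO2 1, where a CACGTG counts as 2 because it holds the core on both strands. Of 20 genes at least 2-fold higher in the lists of oxygen sensing, acid transport, glycolysis, pyruvate entry and mitophagy, 18 had a window that was searched and 11 of these held ACGTG. The other 7 were EGLN3, PDK1, PFKFB3, PFKFB4, PGAM1, SLC16A3 and SLC2A1. The related core GCGTG was in 10 of the 18, and 14 held either core. Over all 35116 windows of this length in the table, 21.4% held ACGTG, 36.5% GCGTG and 7.26% CACGTG. These shares are per window, while the 18 were counted as genes, some with several windows, and were picked as higher. The 2 counts are therefore unlike and are not compared. These are matches of letters and not sites of binding, and a window without a match says only that these letters are not in it. Promoters were found for 75.2% of the higher and 74.6% of the lower genes, under the 80% needed to compare shares between gene sets, so that comparison is void.

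Glucose uptake and glycolysis stood higher as a group: 12 of 22 genes were at least 2-fold higher and 0 lower, against 1.8% and 1.41% of all genes, with a median of 1.08. The summed level of the list went from 10776 to 19411 FPKM. SLC2A3, a glucose transporter of high affinity, was at 24.0 in normoxia and 219 FPKM in hypoxia (log2 ratio 3.14). SLC2A1, the transporter most cells use, was at 58.5 in normoxia and 236 FPKM in hypoxia (log2 ratio 1.99). The 2 transporters were near the same level in hypoxia, where SLC2A3 held 48.1% of their sum against 29.1% in normoxia. Among the enzymes, the hexokinase HK2 was at 0.229 in normoxia and 3.07 FPKM in hypoxia (log2 ratio 1.73), and its relative HK1 at 19.5 and 22.5 FPKM (log2 ratio 0.20). HK1 remained the more abundant, and HK2 went from 1.16% to 12.0% of the pair. PFKFB4, which sets the level of the activator of phosphofructokinase, was at 2.89 and 10.5 FPKM (log2 ratio 1.56), and GPI, the isomerase of glucose phosphate, at 236 and 642 FPKM (log2 ratio 1.44). Of the aldolases, ALDOC was at 3.49 and 21.98 FPKM (log2 ratio 2.35) and ALDOA at 861 and 1954 FPKM (log2 ratio 1.18). ALDOC had the larger ratio and remained about 1% of the pair (0.404% and 1.11%).

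Further down the pathway, PGK1, a kinase that makes ATP, was at 286 in normoxia and 850.2 FPKM in hypoxia (log2 ratio 1.57). The enolase ENO2, best known from neurons, was at 44.1 and 128 FPKM (log2 ratio 1.51), and ENO1 at 1140.3 and 1560.2 FPKM (log2 ratio 0.45). The lactate dehydrogenase subunit LDHA, which favours lactate formation, was at 708 in normoxia and 1911 FPKM in hypoxia (log2 ratio 1.43), while LDHB, which favours the reverse step, was at 861 and 713 FPKM (log2 ratio -0.27). LDHA was below LDHB in normoxia and above it in hypoxia, going from 45.1% to 72.8% of their sum. GAPDH and PKM, abundant enzymes of the lower pathway, were among the genes with the largest gain in FPKM but stayed under 2-fold, at 3266 and 5365 FPKM (log2 ratio 0.72) and 2017 and 3348 FPKM (log2 ratio 0.73). GAPDH is often used as a steady reference. The muscle phosphofructokinase PFKM stood lowest of the list, at -0.29.

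At the gate between glycolysis and mitochondria, the kinases PDK1 and PDK4 went in opposite directions. PDK1, a HIF target that switches off pyruvate dehydrogenase, was at 1.27 in normoxia and 6.80 FPKM in hypoxia (log2 ratio 1.78, counting error 0.19). PDK4, the form known to rise with fasting and fat use, was at 18.9 in normoxia and 1.76 FPKM in hypoxia (log2 ratio -2.85, counting error 0.16). PDK1 thus went from 6.30% to 79.5% of the sum of this pair. The sum itself was lower in hypoxia, as PDK4 differed by -17.2 FPKM and PDK1 by 5.53 FPKM. PDK2 and PDK3, further members of the family, are not part of this share. The dehydrogenase subunits PDHA1 and PDHB were at -0.22 and -0.31, and over the 14 genes of pyruvate entry 1 was at least 2-fold higher and 1 lower. In glycogen metabolism, 8 of 12 genes stood above 0 (7 after rescaling) with a median of 0.30. PPP1R3C, which targets a phosphatase to glycogen, was at 4.02 and 10.3 FPKM (log2 ratio 1.17), the branching enzyme GBE1 at 22.02 and 37.6 FPKM (log2 ratio 0.75) and the phosphorylase PYGL at 39.3 and 64.8 FPKM (log2 ratio 0.71).

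**Figure D2:**
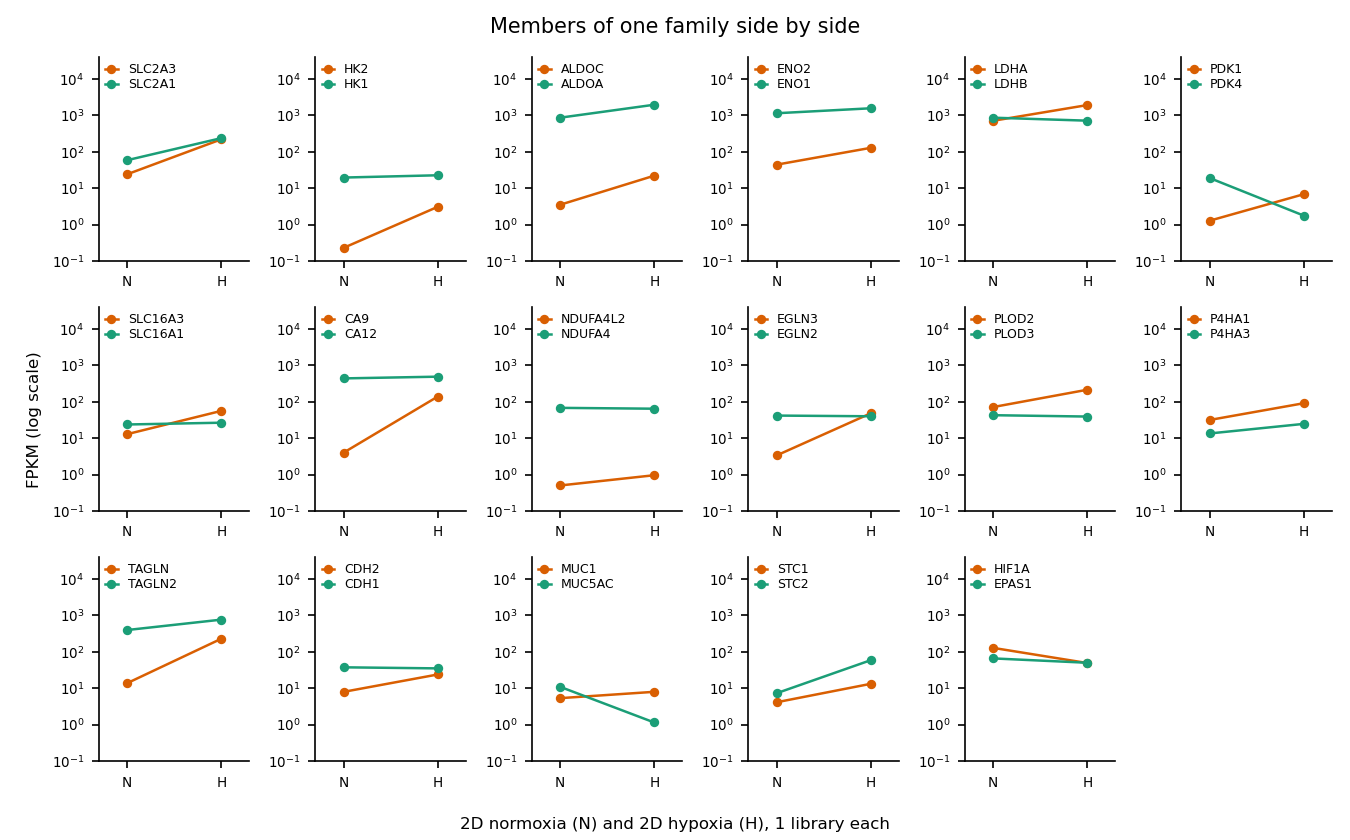
FPKM on a log axis in 2D normoxia (N) and 2D hypoxia (H) for 17 pairs of related genes, 1 library each, with the first-named gene in orange and its partner in green. LDHA, SLC16A3, EGLN3, PDK1 and MUC1 lie below their partner in normoxia and above it in hypoxia, while HK2, ALDOC, ENO2, CA9 and TAGLN stay below.

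Some mitochondrial genes were among the higher ones. BNIP3L and BNIP3, receptors that mark mitochondria for removal, were at 12.1 and 56.9 FPKM (log2 ratio 2.15) and 29.5 and 88.4 FPKM (log2 ratio 1.55). AK4, a mitochondrial adenylate kinase, was at 3.91 and 17.8 FPKM (log2 ratio 1.93), and FAM162A, a mitochondrial protein linked to cell death in hypoxia, at 29.9 and 61.0 FPKM (log2 ratio 1.01). These were the 4 of 12 measured genes of this list past 2-fold. NDUFA4L2, a hypoxic counterpart of the subunit NDUFA4, was under 1 FPKM in both 2D libraries (0.5002 and 0.957), whereas in 3D it went from 0.314 to 12.1 FPKM. COX4I2, the hypoxic form of a subunit of cytochrome oxidase, was listed at 0 in both 2D libraries. The respiratory chain as a list stood slightly lower: 23 of 28 subunits were below 0, the median was -0.18, and none passed 2-fold. NDUFV2, UQCRC2 and CYC1 had the lowest ratios, -0.49, -0.42 and -0.41. In the tricarboxylic acid cycle the median was -0.18, and IDH2, a mitochondrial isocitrate dehydrogenase, stood apart at 37.1 and 70.2 FPKM (log2 ratio 0.90), while the cytosolic IDH1 was at 99.6 and 69.6 FPKM (log2 ratio -0.51).

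Of the genes of lipid droplets and lipolysis, 1 of 11 was past 2-fold. PLIN2, which coats lipid droplets, was at 24.6 in normoxia and 58.3 FPKM in hypoxia (log2 ratio 1.21), and HILPDA, an inhibitor of lipolysis that is a well-known HIF target, at 63.1 and 79.6 FPKM (log2 ratio 0.33). The median of the list, 0.10, turned to -0.029 on rescaling. The carnitine transferase CPT1A, which admits fatty acids to mitochondria, was at 30.1 and 15.8 FPKM (log2 ratio -0.89), and the peroxisomal oxidase ACOX2 at 2.36 and 0.322 FPKM (log2 ratio -1.35). Fatty acid synthesis had a median of -0.41, with 11 of 13 genes below 0 and none past 2-fold. FASN, the synthase, was at 152 and 90.7 FPKM (log2 ratio -0.74), the elongase ELOVL6 at 21.2 and 10.5 FPKM (log2 ratio -0.95) and the desaturase FADS2 at 708 and 418 FPKM (log2 ratio -0.76). Sterol synthesis and uptake stood at -0.36, with 22 of 27 genes below 0. Among its 2 genes past 2-fold was the cholesterol exporter ABCG1, at 7.06 and 2.17 FPKM (log2 ratio -1.35). In 3D the medians of both lists had the other sign, 0.20 and 0.28, and the difference of the responses was not tested.

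Secreted signals to blood vessels were higher in several cases, with 6 of 17 genes past 2-fold, none lower, and a median of 0.64. PDGFB, a growth factor for pericytes and fibroblasts, was at 2.16 in normoxia and 24.6 FPKM in hypoxia (log2 ratio 3.02, counting error 0.16). ANGPTL4, which inhibits lipoprotein lipase, was at 16.8 in normoxia and 85.8 FPKM in hypoxia (log2 ratio 2.29). VEGFA, the main growth factor of vessels, was at 22.7 in normoxia and 66.7 FPKM in hypoxia (log2 ratio 1.52), and the vasodilator peptide ADM at 50.2 and 149.9 FPKM (log2 ratio 1.56). All 4 were also at least 2-fold higher in 3D, where ADM and ANGPTL4 had the larger ratios (2.94 and 3.92) and PDGFB the smaller (1.37). EDN2, a vasoconstrictor peptide, was at 0.757 and 5.43 FPKM (log2 ratio 1.87) in 2D and had a ratio of 0.10 in 3D. The ephrin EFNA1 was at 15.7 and 42.6 FPKM (log2 ratio 1.39).

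Hormone-like secreted proteins and their binders were also among the higher genes. STC2 and STC1, stanniocalcins that act on calcium and phosphate handling, were at 7.24 and 58.5 FPKM (log2 ratio 2.85) and 4.09 and 13.1 FPKM (log2 ratio 1.47). IGFBP3, which binds insulin-like growth factors, was at 132 in normoxia and 707 FPKM in hypoxia (log2 ratio 2.41), and IGFBP1, a liver-type binding protein, at 16.5 in normoxia and 50.1 FPKM in hypoxia (log2 ratio 1.54). In 3D IGFBP1 had a ratio of 4.31, from 29.6 to 604 FPKM, while IGFBP3 had nearly the same ratio in both cultures (2.39 in 3D). Of 14 genes of this list 5 were past 2-fold. Among TGF-beta family genes, the inhibitor SMAD7 was at 6.61 and 23.5 FPKM (log2 ratio 1.69) and the receptor TGFBR1 at 8.19 and 27.3 FPKM (log2 ratio 1.62). The stress cytokine GDF15 was lower, at 153 in normoxia and 57.2 FPKM in hypoxia (log2 ratio -1.41), and so was the response gene ID1 at 132 and 68.7 FPKM (log2 ratio -0.94). In the EGF receptor family, the receptor EGFR was at 39.3 and 75.3 FPKM (log2 ratio 0.92) and its feedback inhibitor ERRFI1 at 44.0 and 118 FPKM (log2 ratio 1.40), the 1 gene of 11 past 2-fold.

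The mRNA of DKK1, a secreted Wnt antagonist, was at 353 in normoxia and 85.7 FPKM in hypoxia (log2 ratio -2.03, counting error 0.04). It was the 1 gene of 17 in the Wnt list past 2-fold, and the median of the list was -0.10. RNF43 and AXIN2, known feedback targets of Wnt signalling, were at 8.75 and 4.44 FPKM (log2 ratio -0.84) and 4.65 and 3.31 FPKM (log2 ratio -0.39). Among chemokines and cytokines, IL32 was at 4.06 in normoxia and 35.4 FPKM in hypoxia (log2 ratio 2.85) and CCL2, which attracts monocytes, at 46.9 in normoxia and 219 FPKM in hypoxia. Most neutrophil attractants stood lower: CXCL5 was at 132 and 47.1 FPKM (log2 ratio -1.47), CXCL1 at 9.93 and 4.02 FPKM (log2 ratio -1.12) and CXCL2 at 6.67 and 2.52 FPKM (log2 ratio -1.12). CXCL8, another of them, named after its value was seen, was at 4.50 and 7.28 FPKM (log2 ratio 0.59). CXCL1, CXCL2 and CXCL3 are close copies, and their values are uncertain where reads fit more than 1 of them. The list held 2 genes at least 2-fold higher and 4 lower of 15, the fourth lower gene being CCL26 at 3.88 and 1.07 FPKM (log2 ratio -1.24). Of the NF-kB subunits and feedback genes, 2 of 14 passed 2-fold (1 on rescaling) and 12 stood above 0 (8 on rescaling), with TNFAIP3 at 1.72 and 4.78 FPKM (log2 ratio 1.09), BIRC3 at 6.205 and 13.8 FPKM (log2 ratio 1.04) and a median of 0.21 (0.12 on rescaling).

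Prostaglandin synthesis and breakdown held 4 lower genes of 10 and 0 higher, against 1.41% and 1.8% of all genes. PLA2G4A, which frees arachidonic acid from membranes, was at 57.2 in normoxia and 11.5 FPKM in hypoxia (log2 ratio -2.22). PTGS2, the inducible cyclooxygenase, was at 45.6 in normoxia and 9.04 FPKM in hypoxia (log2 ratio -2.21), and the terminal synthase PTGES at 26.9 and 11.4 FPKM (log2 ratio -1.17). The genes of 3 successive steps were thus each below their level in normoxia, while HPGD, which breaks prostaglandins down, was at 18.5 and 29.7 FPKM (log2 ratio 0.66). In 3D PTGS2 was at 80.4 and 83.0 FPKM and PTGES had a ratio of -0.25.

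Regulators of energy use and transcription were mixed. DDIT4, an inhibitor of mTOR complex 1, was at 95.8 in normoxia and 249.6 FPKM in hypoxia (log2 ratio 1.37), and ARRDC3, which limits receptor and glucose transporter traffic, at 6.08 and 22.6 FPKM (log2 ratio 1.74). BHLHE40, a repressor in the circadian clock, was at 70.9 and 155 FPKM (log2 ratio 1.12), and MXI1, an antagonist of MYC, at 3.41 and 8.10 FPKM (log2 ratio 1.05). Of the immediate-early genes JUN was at 13.8 and 49.6 FPKM (log2 ratio 1.77) and JUNB at 29.02 and 74.5 FPKM (log2 ratio 1.33), while FOS was near its normoxic level (2.49 and 2.13 FPKM). NR4A1, an orphan nuclear receptor of the early response, was lower at 31.2 and 5.75 FPKM (log2 ratio -2.25). NDRG1, a stress-response gene and well-known HIF target, was at 23.4 in normoxia and 203 FPKM in hypoxia (log2 ratio 3.06). CXCR4, the receptor of CXCL12, was at 1.87 and 15.03 FPKM (log2 ratio 2.48), WISP2, a matricellular protein, at 9.70 and 83.6 FPKM (log2 ratio 2.98), and the transcription cofactor LBH at 17.3 and 95.4 FPKM (log2 ratio 2.40). All 4 were also at least 2-fold higher in 3D, with ratios of 4.01, 3.05, 4.51 and 2.52.

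Collagen chains stood higher in 2D hypoxia, with 6 of 15 past 2-fold, none lower, and a median of 0.88. COL5A1, a fibril collagen, was at 8.44 in normoxia and 54.6 FPKM in hypoxia (log2 ratio 2.56). COL4A1 and COL4A2, partner chains of basement membrane collagen that share a promoter region, were at 8.80 and 45.4 FPKM (log2 ratio 2.24) and 31.5 and 113 FPKM (log2 ratio 1.81). COL7A1, which anchors epithelium to its bed, was at 34.1 and 118 FPKM (log2 ratio 1.76), and COL12A1 at 15.6 and 34.6 FPKM (log2 ratio 1.10). COL1A1, the main collagen of scar tissue, was at 2.32 and 13.2 FPKM (log2 ratio 2.09). In 3D, where COL1A1 was under 1 FPKM in both libraries, its ratio was -0.20. The other 7 fibroblast markers, among them COL1A2, COL3A1, DCN and LUM, stayed under 1 FPKM in both 2D libraries.

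Of the enzymes that finish collagen, 3 of 14 were at least 2-fold higher. LOXL2, which crosslinks collagen, was at 60.6 in normoxia and 347 FPKM in hypoxia (log2 ratio 2.50). PLOD2, which hydroxylates lysines in collagen, was at 71.3 in normoxia and 213 FPKM in hypoxia (log2 ratio 1.57), and P4HA1, the prolyl hydroxylase subunit, at 31.5 in normoxia and 90.8 FPKM in hypoxia (log2 ratio 1.498). PLOD3, a relative of PLOD2, was at -0.12, and P4HA3, a relative of P4HA1, at 13.4 and 24.6 FPKM (log2 ratio 0.83). PLOD2 and P4HA1 thus had larger ratios than these relatives. P4HB, the partner subunit of P4HA1, was at -0.21, and LOX itself was under 1 FPKM in both libraries. In the basement membrane, the laminin chain LAMB3 was at 8.87 and 22.7 FPKM (log2 ratio 1.26), while LAMA3, a chain it pairs with, was at 13.5 and 9.03 FPKM (log2 ratio -0.53) and the linker NID2 at 2.50 and 0.732 FPKM (log2 ratio -1.02).

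In proteolysis of matrix, 2 of 19 genes were at least 2-fold higher and 1 lower. The gelatinase MMP2 was at 1.95 and 5.26 FPKM (log2 ratio 1.09), and the lysosomal protease CTSL was lower at 331 in normoxia and 119 FPKM in hypoxia (log2 ratio -1.46). The median of this list was 0.0006 and turned to -0.13 on rescaling. Among 15 integrins, ITGA11, a collagen receptor, was at 0.703 and 4.54 FPKM (log2 ratio 1.70) and ITGAV, which pairs with several beta chains, at 42.7 and 89.3 FPKM (log2 ratio 1.05). ITGB5 was at 213 and 125 FPKM (log2 ratio -0.76), and the median of 0.024 turned to -0.10 on rescaling.

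Contractile and actin-binding genes were higher in 24 of 28 cases, also after rescaling, with 7 past 2-fold, 1 lower and a median of 0.68. Their summed level went from 8284 to 13255 FPKM. TAGLN, an actin-binding protein of smooth muscle, was at 13.7 in normoxia and 227 FPKM in hypoxia (log2 ratio 3.96). The tropomyosin TPM1 was at 223 in normoxia and 953 FPKM in hypoxia (log2 ratio 2.09), the non-muscle myosin heavy chain MYH9 at 205 and 498 FPKM (log2 ratio 1.27) and the myosin light chain MYL9 at 0.191 and 4.43 FPKM (log2 ratio 2.19). ACTA2, the smooth muscle actin that defines myofibroblasts, was the lower gene, at 11.7 and 4.10 FPKM (log2 ratio -1.31). The thymosins TMSB10 and TMSB4X, small proteins that hold actin monomers, had the largest gains in FPKM of all genes, at 3264 and 6580.0 FPKM (log2 ratio 1.01) and 2056 and 4259 FPKM (log2 ratio 1.05). Among targets of YAP and TAZ, which respond to tension, F3 (tissue factor) was at 1.45 and 11.7 FPKM (log2 ratio 2.37), AXL, a receptor kinase, at 29.7 and 82.3 FPKM (log2 ratio 1.44) and CYR61 at 49.6 and 119 FPKM (log2 ratio 1.24). CTGF, another such target, was at 27.4 and 46.1 FPKM (log2 ratio 0.73), and 13 of 15 stood above 0 (13 after rescaling).

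Genes of the mesenchymal switch had a median of 0.44. The cadherin CDH2 was at 7.90 in normoxia and 23.7 FPKM in hypoxia, while the epithelial CDH1 was at 37.3 in normoxia and 34.8 FPKM in hypoxia. CDH1 was thus nearly level and CDH2 went from 17.5% to 40.5% of their sum. TGFBI, a matrix protein induced by TGF-beta, was at 581 and 1632 FPKM (log2 ratio 1.49), THBS1 at 22.8 and 62.2 FPKM (log2 ratio 1.41) and vimentin (VIM) at 450.002 and 882 FPKM (log2 ratio 0.97). FN1 was nearly level, at 139 and 142 FPKM. Of the tight junction genes, CLDN2, which forms pores for water and sodium, was at 56.5 in normoxia and 11.8 FPKM in hypoxia (log2 ratio -2.17), and the scaffold TJP3 at 7.33 and 1.71 FPKM (log2 ratio -1.62), while CLDN1 was at 40.2 and 71.8 FPKM (log2 ratio 0.82). Of the keratins, KRT18 and KRT8, the pair of simple epithelia, had large losses in FPKM, at 3275 and 1721 FPKM (log2 ratio -0.93) and 3126 and 1894 FPKM (log2 ratio -0.72). Both were higher in 3D hypoxia than in 3D normoxia, with ratios of 0.45 and 0.39. KRT80 was at 36.6 and 91.3 FPKM (log2 ratio 1.296), and KRT86 at 35.7 and 7.79 FPKM (log2 ratio -2.06), though KRT86 and KRT81 are close copies and the value of KRT86 is uncertain. The median of keratins and desmosomes was 0.26, and -0.29 over the members with a mean of at least 5 FPKM.

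**Figure D3:**
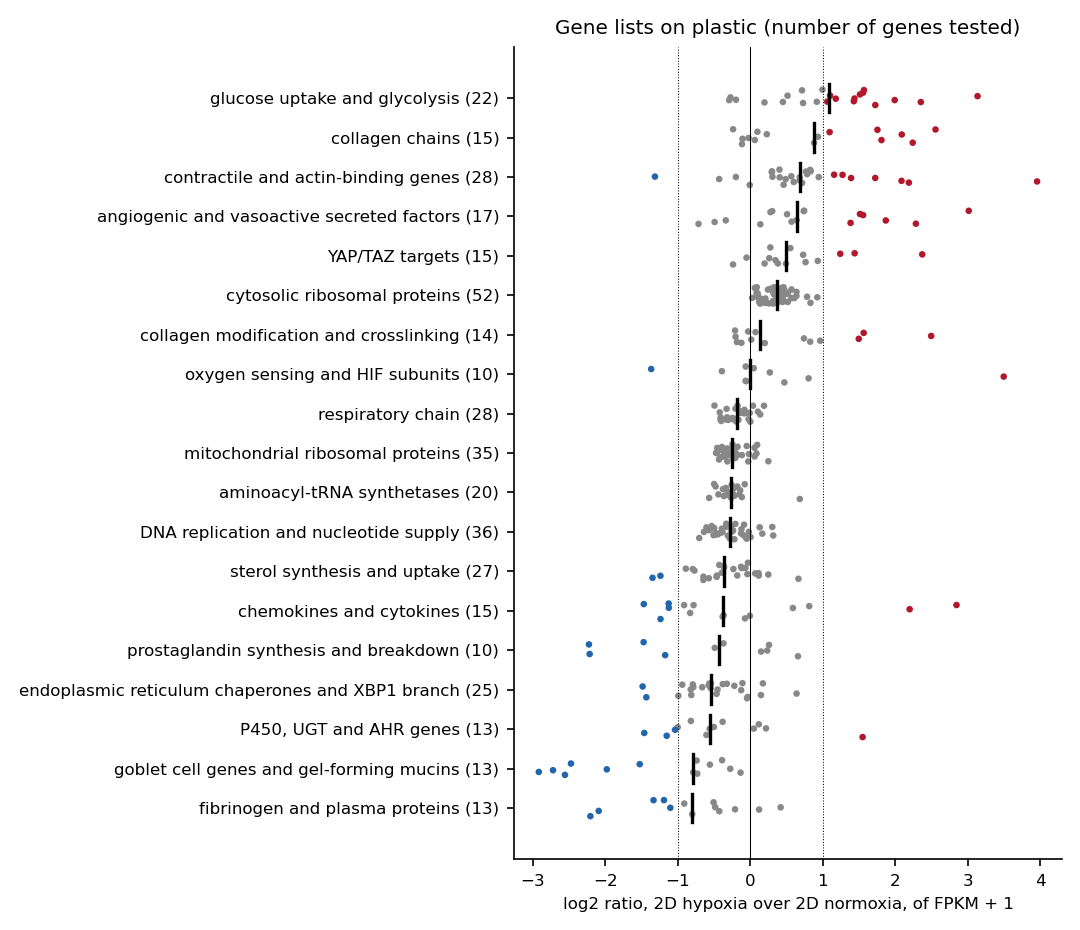
Log2 ratio in 2D of each measured gene in 19 lists, with the number of genes in brackets. Points are genes (red at least 2-fold higher, blue at least 2-fold lower, grey between), black bars are medians and dotted lines mark 2-fold. The bars run from 1.08 for glycolysis to -0.80 for plasma proteins, and all 52 ribosomal protein genes lie above 0.

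The secretory programme of goblet cells, which make airway mucus, stood lower. None of 13 measured genes was above 0, 6 were at least 2-fold lower and the median was -0.79, with a summed level of 738 FPKM in normoxia and 196 in hypoxia. MUC5B, a gel-forming mucin, was at 101 in normoxia and 12.5 FPKM in hypoxia (log2 ratio -2.91), and its neighbour MUC5AC at 10.8 in normoxia and 1.14 FPKM in hypoxia (log2 ratio -2.47). AGR2, a disulfide isomerase that folds mucins, was at 435 in normoxia and 73.3 FPKM in hypoxia (log2 ratio -2.55). SPDEF, the transcription factor that directs goblet cell differentiation, was at 19.01 and 2.04 FPKM (log2 ratio -2.72), and FOXA3, which acts with it, at 3.23 and 0.472 FPKM (log2 ratio -1.52). FOXA2 was nearly level at 20.2 and 18.3 FPKM (log2 ratio -0.13). The membrane mucin MUC1 was not lower, at 5.30 and 7.91 FPKM (log2 ratio 0.50), and MUC13 was, at 13.6 and 5.69 FPKM (log2 ratio -1.13). Enzymes that begin and extend mucin glycans had a median of 0.072 (-0.027 on rescaling) and a single gene past 2-fold, GALNT4, at 14.3 and 6.39 FPKM (log2 ratio -1.05).

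Transport genes of epithelia were lower in the same library. AQP3, a channel for water and glycerol, was at 31.2 in normoxia and 4.65 FPKM in hypoxia (log2 ratio -2.51), and SLC51B, a subunit of a bile salt exporter, at 22.8 in normoxia and 2.86 FPKM in hypoxia (log2 ratio -2.62). SLC12A2, which loads chloride into secreting cells, was at 65.5 and 22.7 FPKM (log2 ratio -1.49), and the potassium channel KCNK5 at 7.71 and 2.02 FPKM (log2 ratio -1.53). These 4 were past 2-fold of 14 measured, with none higher. Of 23 epithelial lineage factors, 2 were past 2-fold, both lower, while 10 stood above 0 and the median was -0.10. ETV4 was at 28.1 and 9.92 FPKM (log2 ratio -1.41) and EHF, an ETS factor of epithelia, at 2.37 and 0.609 FPKM (log2 ratio -1.07). The values of EHF rested on only about 31.7 and 13.2 fragments. HNF4A was at a log2 ratio of 0.48. The calcium-binding S100 proteins had a median of 0.46, with 10 of 14 genes above 0 (10 after rescaling), 2 at least 2-fold higher and 1 lower. The lower gene, S100P, stood at 22.4 in normoxia and 1.58 FPKM in hypoxia (log2 ratio -3.19, counting error 0.14). S100A10 was among the higher ones at 336 and 831 FPKM (log2 ratio 1.304). S100P had the lowest ratio of the genes above 0 in both libraries. The keratin KRT4 was at 28.9 and 4.41 FPKM (log2 ratio -2.47) and the membrane protein SUSD2 at 32.8 and 6.02 FPKM (log2 ratio -2.27).

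Secreted defence proteins followed the same direction, with 4 of 13 lower and none higher. The protease inhibitor SLPI was at 78.1 in normoxia and 24.3 FPKM in hypoxia (log2 ratio -1.64), the iron-binding LCN2 at 16.8 and 4.64 FPKM (log2 ratio -1.66) and the cystatin CST1 at 13.05 and 3.37 FPKM (log2 ratio -1.68). In complement, 3 of 14 genes were past 2-fold, all lower, among them vitronectin (VTN) at 68.0 and 24.6 FPKM (log2 ratio -1.43) and C4BPA, which binds a complement fragment, at 3.07 and 0.367 FPKM (log2 ratio -1.57). Plasma proteins that A549 cells also make had a median of -0.80 (-0.94 on rescaling), with 5 of 13 past 2-fold. APOH was at 48.5 and 9.75 FPKM (log2 ratio -2.20), AMBP at 8.70 and 1.28 FPKM (log2 ratio -2.09), the fibrinogen chains FGB and FGA at 86.8 and 37.5 FPKM (log2 ratio -1.19) and 193 and 89.5 FPKM (log2 ratio -1.10), and the related FGL1 at 87.7 and 34.2 FPKM (log2 ratio -1.33). In 3D the median of this list was -0.033.

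A549 carries high levels of the redox and detoxifying enzymes driven by NRF2, and these stood slightly lower in hypoxia. Of 27 such genes, 20 were below 0, with a median of -0.27 and 1 past 2-fold. The aldo-keto reductase AKR1C1 was at 321 and 143 FPKM (log2 ratio -1.16) and AKR1C3 at 1201 and 642 FPKM (log2 ratio -0.90), but this family holds near-identical copies and its single values are uncertain. NQO1, a quinone reductase, was at 611 and 403 FPKM (log2 ratio -0.60). TXNRD1, a thioredoxin reductase, was higher at 379 and 554 FPKM (log2 ratio 0.55), so members of the list stood on both sides of 0. ALDH3A1, an aldehyde dehydrogenase, was at 449 in normoxia and 104 FPKM in hypoxia (log2 ratio -2.10), while ALDH1A1, the most abundant of its list, was at 3527 and 3187 FPKM (log2 ratio -0.15). Of P450, UGT and AHR genes, CYP2S1 was at 58.4 and 20.6 FPKM (log2 ratio -1.46), the shared electron donor POR at 177 and 85.6 FPKM (log2 ratio -1.04), and TIPARP, a target of the AHR, at 9.65 and 30.2 FPKM (log2 ratio 1.55). GPX2, an epithelial glutathione peroxidase, was at 381 and 176 FPKM (log2 ratio -1.11), and GPX3, a secreted one, at 2.98 and 7.56 FPKM (log2 ratio 1.10).

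The metallothioneins MT2A and MT1X, which bind zinc and copper, were at 236 and 483 FPKM (log2 ratio 1.03) and 23.3 and 59.6 FPKM (log2 ratio 1.32), and single members of this family share long stretches of sequence. Iron genes had a median of 0.037 (-0.094 on rescaling), and STEAP1, a metalloreductase, was at 62.5 and 23.1 FPKM (log2 ratio -1.40). Among ABC transporters the median was -0.10, and ABCG1 was the 1 gene past 2-fold. The drug pumps ABCG2 and ABCB1 were at 15.9 and 9.23 FPKM (log2 ratio -0.73) and 6.97 and 3.95 FPKM (log2 ratio -0.69).

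Folding in the endoplasmic reticulum stood lower, with 22 of 25 genes below 0 and a median of -0.54. XBP1, the transcription factor that expands secretory capacity, was at 100.4 in normoxia and 36.6 FPKM in hypoxia (log2 ratio -1.43), and its cochaperone target SDF2L1 at 42.1 and 14.4 FPKM (log2 ratio -1.48). DNAJB11 and HYOU1, further chaperones, were at 77.4 and 38.5 FPKM (log2 ratio -0.99) and 79.1 and 40.9 FPKM (log2 ratio -0.94). HSPA5, the main chaperone there, named after its value was seen, was at 305 and 192 FPKM (log2 ratio -0.66). ERO1A, an oxidase and HIF target, also named after its value was seen, was higher at 26.0 and 41.0 FPKM (log2 ratio 0.64). Targets of ATF4 had a median of -0.13 with none past 2-fold, and ATF4 itself was at 165 and 166 FPKM. The list of heat shock proteins had a median of -0.22.

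Genes of the translation machinery differed by list. All 52 measured cytosolic ribosomal proteins were above 0 (44 after rescaling), none past 2-fold, with a median of 0.36 (0.23 after rescaling) and a summed level of 44792 FPKM in normoxia and 58919 in hypoxia. RPSA was at 547 and 1040.0 FPKM (log2 ratio 0.93), RPS12 at 943 and 1679.6 FPKM (log2 ratio 0.83) and RPLP0 at 1093 and 1884 FPKM (log2 ratio 0.79), and these genes have many processed copies in the genome. Mitochondrial ribosomal proteins stood at -0.26, with 30 of 35 below 0. Of 20 aminoacyl-tRNA synthetases 1 stood above 0, DARS, at 21.4 and 35.0 FPKM (log2 ratio 0.69). Proteasome subunits had a median of -0.10 and lysosomal genes -0.22, with CTSL and the peptidase CTSC, at 71.4 and 32.9 FPKM (log2 ratio -1.10), past 2-fold.

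Genes of DNA replication had a median of -0.27, with 31 of 36 below 0 and none past 2-fold. The helicase subunit MCM7 was at 144 and 99.7 FPKM (log2 ratio -0.53) and the clamp PCNA at 226 and 159 FPKM (log2 ratio -0.50). Mitosis genes stood at -0.16, with AURKA at 58.3 and 42.3 FPKM (log2 ratio -0.45). In 3D both medians were lower, -0.48 and -0.42. The CDK inhibitor CDKN1A was at 28.8 and 19.2 FPKM (log2 ratio -0.56), CDK6 at 8.93 and 17.8 FPKM (log2 ratio 0.92), and the median of cyclins and inhibitors, 0.11, turned to -0.023 on rescaling. BCL2A1, a survival gene, was at 1.003 and 3.24 FPKM (log2 ratio 1.08), and BAX, which permeabilises mitochondria, at 207 and 148 FPKM (log2 ratio -0.48); the median of the BCL2 family, 0.0041, turned to -0.10 on rescaling.

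In antigen presentation 3 of 13 genes were at least 2-fold lower, against 1.41% of all genes, while 8 of the list stood above 0 (5 on rescaling). HLA-DMB and HLA-DMA, which load peptides on class II molecules, were at 50.4 and 16.6 FPKM (log2 ratio -1.54) and 14.6 and 4.49 FPKM (log2 ratio -1.50), and IFI30, a lysosomal thiol reductase, at 24.3 and 8.01 FPKM (log2 ratio -1.49). HLA-B, a class I gene, was at 9.44 and 18.7 FPKM (log2 ratio 0.92), with the caution that class I genes share sequence and vary between people. The median of this list, 0.083, and that of interferon-stimulated genes, 0.11, turned to -0.015 and -0.014 on rescaling. OAS1 was at 26.2 and 9.05 FPKM (log2 ratio -1.44) and GBP2 at 2.62 and 7.64 FPKM (log2 ratio 1.26), so single interferon genes passed 2-fold in both directions. Of 27 tetraspanins and carcinoma adhesion molecules, 4 were at least 2-fold lower and 1 higher. The median was -0.0098 (-0.14 on rescaling), with 13 genes above 0. CEACAM6 was at 113 in normoxia and 31.6 FPKM in hypoxia (log2 ratio -1.80), with a ratio of -0.24 in 3D. CEACAM1 was at 4.90 and 0.995 FPKM (log2 ratio -1.56) and the tetraspanin TSPAN8 at 3.23 and 0.483 FPKM (log2 ratio -1.51), while MCAM was at 3.94 and 9.41 FPKM (log2 ratio 1.08). Among long noncoding RNAs GAPLINC was at 10.6 and 3.45 FPKM (log2 ratio -1.39) and NEAT1 at 345 and 233 FPKM (log2 ratio -0.56), and the median of 0.13 turned to -0.0044 on rescaling. Long noncoding RNA genes with symbols starting MIR and a digit had been left out by symbol and are not part of these values. RBM3, an RNA-binding protein induced by cold and low oxygen, was at 28.5 and 53.1 FPKM (log2 ratio 0.88), and the SR proteins and hnRNPs had a median of 0.072 (-0.061 on rescaling).

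Some of the most extreme values were uncertain. SNAR-E and P2RX6P were at 33.0 and 23.3 FPKM in 2D hypoxia and listed at 0 in 2D normoxia, and SNAR-E has near-identical copies. RMRP, the RNA of a mitochondrial and nucleolar ribonuclease, was at 25.1 FPKM in normoxia and listed at 0 in hypoxia. Such a 0 may stand for an estimate that failed, so no ratio is read from these. BCYRN1, a short RNA related to Alu repeats, was at 94.2 and 20.01 FPKM (log2 ratio -2.18), and the mitochondrial-like copies MTRNR2L9 and MTRNR2L2 at 2121 and 1038 FPKM (log2 ratio -1.03) and 876 and 451 FPKM (log2 ratio -0.96). Of the genes past 2-fold, 74 were under 5 FPKM in both 2D libraries.

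The 3D pair shares no library with the 2D pair and gives a separate look at the same genes. There 348 genes (2.77%) were higher and 123 (0.979%) lower by the same threshold. The 132 genes higher in both made up 58.4% of the 2D genes and 37.9% of the 3D genes, and the 62 lower in both made up 35.0% and 50.4%. Of the 226 higher genes in 2D, 92.04% were above 0 in 3D, against 47.8% of all genes, with a median of 1.34 in 2D and 1.19 in 3D. Of the 177 lower genes, 87.0% were below 0 in 3D, against 52.2%, with medians of -1.29 and -0.68. Across the 12565 genes, which are not independent, Pearson's r between the ratios was 0.63 and Spearman's rho 0.58. The median of the lower genes was thus closer to 0 in 3D, while that of the higher genes was nearly the same in both cultures. Because the genes were picked by their 2D ratio, their medians are biased away from 0 in 2D and do not compare the 2 responses. The 3D libraries were also shallower, at about 11600000 and 11300000 fragments. Whether the choice of genes, the depth or the culture sets the difference was not tested.

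**Figure D4:**
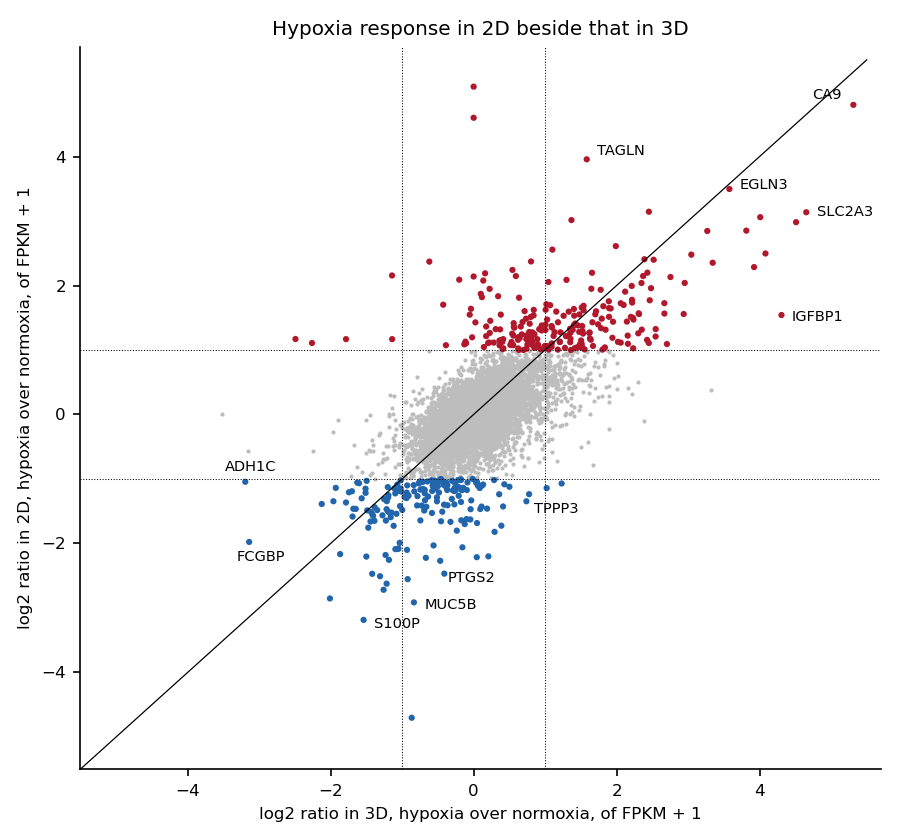
Log2 ratio of hypoxia over normoxia in 3D (x axis) and 2D (y axis) for the 12565 genes, 1 library per condition and culture. Red and blue points are at least 2-fold higher or lower in 2D, dotted lines mark 2-fold and the solid line equal ratios. CA9, EGLN3 and SLC2A3 lie far from 0 in both cultures, TAGLN above and IGFBP1 below the line of equal ratios.

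Short of 1.5-fold in the same direction in 3D were 52 of the higher and 83 of the lower 2D genes. These counts include genes that went the other way in 3D, 5 and 2 of them by at least 2-fold. Among the higher ones, COL4A1 was at 2.49 and 4.08 FPKM in 3D (ratio 0.54) and COL1A1 at 0.856 and 0.614. MYL9, a myosin light chain, had a ratio of 0.16 in 3D. Named after their values were seen, TNC, a matrix glycoprotein, had ratios of 1.95 in 2D and 0.22 in 3D, and AMD1, an enzyme of polyamine synthesis, was at 25.4 and 92.3 FPKM (log2 ratio 1.82) in 2D with a ratio of 0.12 in 3D. Among the lower ones SMOC1, a calcium-binding matrix protein, was at 36.9 in normoxia and 7.25 FPKM in hypoxia in 2D (log2 ratio -2.20) with a ratio of 0.21 in 3D, and STRA6, the receptor for retinol-binding protein, had ratios of -1.82 and 0.29. PTGS2, CST1, SLPI, LCN2 and TJP3 were also under 1.5-fold in 3D, with 3D ratios of 0.044, 0.048, -0.17, -0.46 and -0.10. DKK1 was at 445 and 301 FPKM in 3D, a ratio of -0.56. With 1 library per group, the difference between the responses of the 2 cultures could not be tested.

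**Figure D5:**
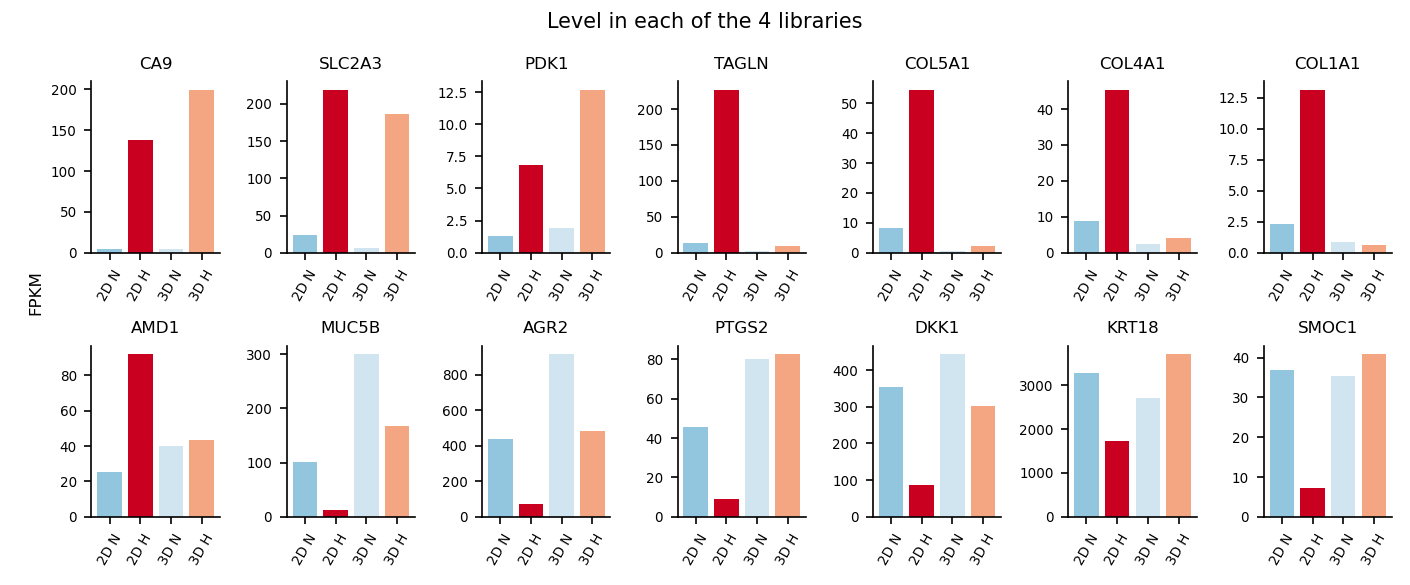
FPKM in each of the 4 libraries (2D normoxia, 2D hypoxia, 3D normoxia, 3D hypoxia) for 14 genes, with bars from 0, 1 library per bar, blue for normoxia, red for hypoxia and paler shades for 3D. TAGLN, COL5A1, COL4A1, COL1A1 and AMD1 are highest in 2D hypoxia, and MUC5B, AGR2, PTGS2, DKK1, KRT18 and SMOC1 are lowest there.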

How the data were processed

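RNA of A549 cells was sequenced in 4 libraries (2D and 3D culture, normoxia and hypoxia), from RNA taken with miRNeasy and libraries made with a stranded TruSeq mRNA kit, per the labels' protocols. The deposited values are FPKM per gene. Per the submitters' processing notes the tools included Cuffdiff 2.2.1, SAMtools 0.1.18, TopHat2 2.1.1 and Bowtie2 2.2.8, with build hg19. Not given in the sources used here are the annotation, the use of strand and the handling of reads that fit several genes. The FPKM sums differed between libraries, at 473503 (2D normoxia), 519824 (2D hypoxia), 543547 and 596102 (3D).

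Depth was inferred from the smallest steps of the deposited FPKM values with transcript lengths of GENCODE 29, and the counting errors of log2 ratios rest on it. The log2 ratio used a pseudocount of 1 FPKM and a minimum mean of 1 FPKM over the 4 libraries, computed with pandas 2.3.3, numpy 2.4.6 and scipy 1.17.1 under Python 3.11.15, and plots were made with matplotlib 3.10.9. The calculation was tested on simulated data. With 1 library per group no test between conditions was run, and genes were described by size.

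The members and the 69 gene lists were chosen with earlier results of these data known, so no list is independent support. Named were the 25 highest and 25 lowest ratios among genes with at least 5 FPKM in a 2D library, without symbols starting LOC or LINC; up to 8 members of each list by absolute ratio; the genes of 20 pairs of relatives with HIF1A, EPAS1 and ARNT; the 8 largest FPKM differences per direction; and genes past 2-fold in opposite directions in 2D and 3D. ALDH1A1, ATF4, FN1, FOS, FOXA2, HNF4A, PDHA1, PFKFB3 and PGAM1 were named outside this rule, after their values were seen. Promoters and gene order came from RefSeq (GRCh38.p14), and no coordinate was converted. Promoters were matched by symbol to 79.8% of the genes compared. Gene order, matched by symbol or synonym, covered 12370 of the genes compared. Results for some genes are not reported here. Alternatives were pseudocounts of 0.1 and 5, other minimums, rescaling to a sum of 1000000 or to the mean sum of the 4 libraries, centring on the median, keeping small RNA genes and leaving out genes listed at 0.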

Additional observations from a re-analysis of the deposited data

Results flagged for a closer look

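Of the genes at least 2-fold apart in both cultures, 7 had opposite directions in 2D and 3D. With 1 library per group the difference was not tested. TPPP3, a tubulin-binding protein, was at 6.003 in normoxia and 2.18 FPKM in hypoxia in 2D, a log2 ratio of -1.14, and at 22.6 and 46.9 FPKM in 3D, a ratio of 1.02. The histone gene HIST1H4E was at 2.30 in normoxia and 0.572 FPKM in hypoxia in 2D, a ratio of -1.07, and had a ratio of 1.23 in 3D; its mRNA lacks a poly(A) tail and its coding sequence has many close copies. The other 5 were higher in 2D and lower in 3D, and all are antisense, readthrough or overlapping gene models whose values are uncertain, since the sources used here do not say how strand or shared reads were counted. The antisense gene CDC37L1-AS1 had ratios of 1.17 and -1.14, and the readthrough model TRIM6-TRIM34 of 1.17 and -1.79. The ratios of the other 3 rest in part on values listed at 0, which may be estimates that failed, and no size is read from them. CELSR3-AS1 and BLOC1S5-TXNDC5 were listed at 0 in 2D normoxia and in 3D hypoxia, which with the pseudocount gave ratios of 1.11 and -2.26, and of 2.16 and -1.14. NARR, which overlaps RAB34, was at 0.0132 FPKM in 2D normoxia and listed at 0 in 3D hypoxia, which gave 1.17 and -2.49.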

How the results depend on the processing

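No paired analysis was possible because each group had 1 library, and for the same reason no library could be left out in turn. A pseudocount of 0.1 gave 317 higher and 326 lower genes (49.3% higher), and 65 higher and 60 lower past 4-fold. A pseudocount of 5 gave 112 higher and 70 lower genes, 20 and 5 past 4-fold, and 67 higher and 23 lower in both cultures. Rescaling to a sum of 1000000 gave 316 lower genes and 97 lower in both cultures, and the higher genes were 39.6% of those past 2-fold in place of 56.1%. Rescaling to the mean sum of the 4 libraries, an alternative chosen after seeing the data, gave 182 higher and 243 lower genes (42.8% higher). Keeping small RNA genes gave 63 and 40 genes past 4-fold. The median of keratins and desmosomes turned to -0.29 with a minimum mean of 5 FPKM. On rescaling, the medians turned to -0.029 for lipid droplets, -0.014 for interferon-stimulated genes, -0.023 for D cyclins and CDK inhibitors, and -0.0044 for long noncoding RNAs. With the mean sum the same 4 stood at -0.029, -0.014, -0.023 and -0.0043. The signs of 13 list medians changed on rescaling in all, the same 13 with either sum. The cause of these shifts was not tested. No named gene changed direction past 2-fold in the alternatives run. Of 690 list medians under alternatives, 1 moved by over 1.5-fold, and 9 with a reported log2 ratio of 0.1 or more in size changed sign.

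The main limit is the single library per condition: counting errors cover fragments and not cultures. The 2D hypoxia library was deeper than the 2D normoxia one (38500000 against 23800000 fragments), so low genes were measured less well in normoxia. Of the genes past 2-fold, 74 were under 5 FPKM in both 2D libraries.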

Other observations

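Some genes past 2-fold lay beside another one. Of the 226 higher genes in 2D, 33 (14.6%) had a higher gene as next neighbour in the order of expressed genes on the chromosome, against 3.59% of the 12370 genes that could be placed. Of the 175 placed lower genes, 23 (13.1%) had a lower neighbour, against 2.77%. These include overlapping models, such as HIF1A with HIF1A-AS2 and UPK1A with UPK1A-AS1. The genes below were chosen after their values were seen. Some pairs are relatives in a cluster. CAV1 and CAV2, coat proteins of caveolae, had ratios of 1.64 and 1.304 in 2D and 1.92 and 1.36 in 3D, and APOL1 and APOL2, apolipoproteins L, had 1.96 and 2.13 in 2D and 2.48 and 2.75 in 3D. IGFBP1 and IGFBP3 are neighbours on chromosome 7 and MUC5AC and MUC5B on chromosome 11. Other neighbours are unrelated in sequence, such as PFKFB4, UCN2 and COL7A1 on chromosome 3. UCN2, a peptide hormone, was at 3.86 and 17.8 FPKM (log2 ratio 1.95) in 2D with a ratio of 1.65 in 3D.

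Further pairs of genes from one pathway were past 2-fold in 2D and nearer to 0 in 3D. The bradykinin receptors BDKRB1 and BDKRB2, which sense a peptide of inflammation, were at 7.76 and 1.65 FPKM (log2 ratio -1.72) and 27.7 and 9.66 FPKM (log2 ratio -1.43), with ratios of 0.39 and 0.41 in 3D. In retinoid handling, the enzyme RDH10, which makes retinal from retinol, was at 64.2 and 19.6 FPKM (log2 ratio -1.67), with a ratio of -0.32 in 3D, and the receptor STRA6 at 55.2 and 14.9 FPKM (log2 ratio -1.82). In polyamine metabolism AMD1, which makes the aminopropyl donor, was higher at 25.4 and 92.3 FPKM (log2 ratio 1.82), and SMOX, which oxidises spermine, lower at 51.0 and 22.4 FPKM (log2 ratio -1.15). The 3D ratio of SMOX was -0.53. None of these differences between cultures was tested.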
